A study of Mus musculus with 22 samples.

Results

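The 5 ribosome footprint libraries and the 5 RNA libraries of fasted, vehicle-fed mouse quadriceps were compared gene by gene, over the 5959 protein-coding genes among the 6054 genes of the deposited count table. These 10 libraries are part of 22 samples in all, and the 12 leucine libraries were not used. The mice were C57Bl/6, an inbred laboratory strain, had no food overnight and received vehicle alone by mouth 30 minutes before the muscle was removed. RNA libraries came from fragmented total RNA depleted of ribosomal RNA, and footprint libraries from fragments that ribosomes protected against nuclease. The labels do not say whether the libraries of a group came from separate animals, so p-values measure only the spread between these samples.

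A ribosome covers a short stretch of mRNA as it reads it, so the number of footprints on a gene reflects how many ribosomes stand on its mRNAs. The ratio of footprints to RNA, often called translational efficiency, differs between mRNAs because start sites, upstream reading frames and regulatory proteins set how often ribosomes begin. In muscle most of this output goes to contractile, calcium-handling and energy-supplying proteins. In a fasted animal, mRNAs that begin with a pyrimidine tract, such as those of ribosomal proteins, are known to be held back when the kinase mTORC1 is little active.

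RNA libraries held between 15016267 and 27305083 counts and footprint libraries between 24432316 and 48996109. Levels are given as CPM, library-scaled counts with TMM factors, and ratios as log2 of footprint over RNA with the standard error of the fit. A log2 ratio of 0 stands for the typical gene of the table, not for a number of ribosomes per mRNA. The columns carry 2 unexplained prefixes, called sets A and B here, with 3 libraries per assay in set A and 2 in set B. Libraries are named in column order within a set, so RNA A1 and footprint A1 are not known to share an animal. Of the fast-fibre markers 12 of 12 were measured, against 2 of 10 slow-fibre or cardiac and 0 of 9 erythroid markers; markers outside the table were not analysed here.

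Footprints and RNA were related but far from proportional. Pearson's r between log2 mean RNA and log2 mean footprint CPM was 0.81 across the coding genes, which are not independent replicates. The ratio at the 95th percentile of genes was 9.44 times that at the 5th, from 3.26-fold below the typical gene to 2.89-fold above it, and the 25th and 75th percentiles were at log2 ratios of -0.64 and 0.59. The median standard error of a gene's log2 ratio was 0.109, against a standard deviation of 0.993 over genes. Ratios computed from set A alone and from set B alone had a Pearson's r of 0.944 across genes.

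With edgeR's quasi-likelihood test and an adjusted p under 0.05, 2227 coding genes (37.4%) had a higher ratio than the typical gene and 2257 (37.9%) a lower one. The 5 footprint and 5 RNA values did not overlap for 3748 genes, or 62.9%. Because such a test calls most genes, groups are described below with a stricter edgeR test against a 2-fold difference. It called 488 coding genes high (8.19%) and 653 low (11%), and "high" and "low" are used for these calls. The typical gene of a list is set beside the coding median of 0.00.

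**Figure D1:**
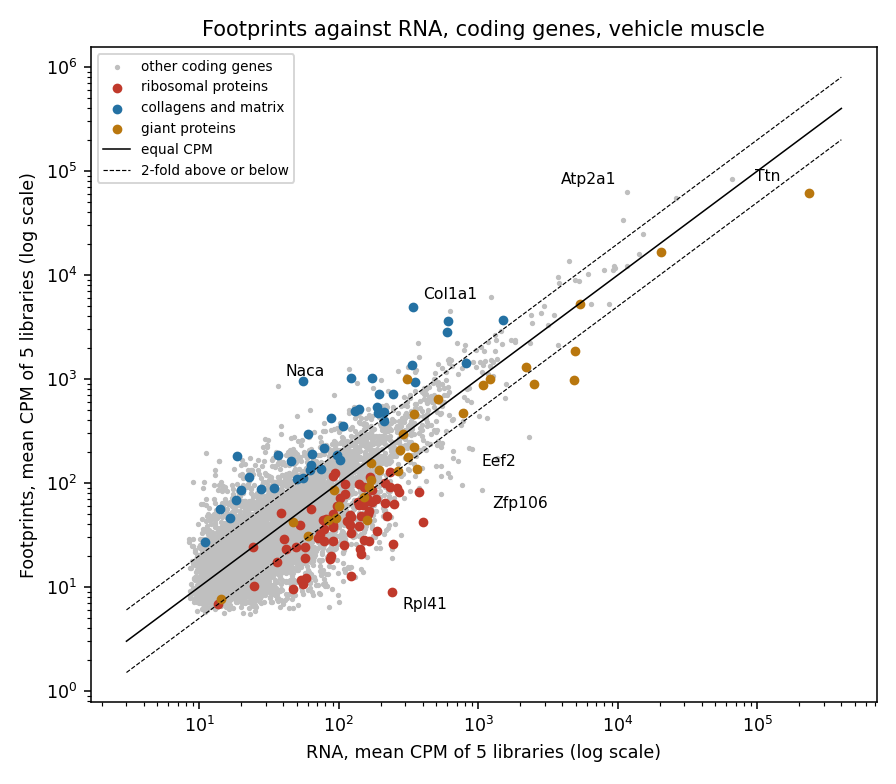
Mean footprint CPM against mean RNA CPM (both log axes, 5 libraries each) for the 5959 coding genes, with ribosomal protein, collagen and matrix, and giant-protein genes in colour. Ribosomal protein genes lie mostly below the line of equal CPM, matrix genes all above it, and Ttn falls below it at the far right.

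The largest muscle proteins and the contractile and calcium-handling proteins divided the libraries differently in the 2 assays. Ttn, which encodes titin, the elastic scaffold of the sarcomere, took 24.1% ± 2.59 of RNA counts but 5.91% ± 0.538 of footprint counts (SD, n = 5 each). Atp2a1, the calcium pump of fast sarcoplasmic reticulum, took 1.19% ± 0.189 of RNA counts and 6.07% ± 0.637 of footprint counts. Pvalb, the calcium buffer parvalbumin, went from 1.14% ± 0.256 of RNA to 3.29% ± 0.349 of footprints, and Acta1, skeletal actin, from 2.70% ± 0.111 to 5.36% ± 0.746. Myh4, the myosin heavy chain of the fastest fibres, took 6.78% ± 0.984 and 8.03% ± 1.07. The 10 genes with the highest mean count, taken separately in each assay, held 43.2% of RNA and 36.7% of footprints.

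Ttn RNA was at 262723, 281796 and 250251 CPM in set A and 195063 and 185971 CPM in set B. Its footprints were at 64619.9, 54517 and 69009 CPM in set A and 64888 and 53201 CPM in set B. Every footprint library lay below every RNA library, and RNA was lower in set B than in set A. The log2 ratio was -1.94 ± 0.143, or 3.84-fold below the typical gene (edgeR 2-fold test, adjusted p = 2.18e-05). For Atp2a1, RNA was at 14071, 12697 and 13334 CPM in set A and 8753 and 9096 CPM in set B, and footprints at 73632, 59577 and 70859 CPM in set A and 56034 and 54488 CPM in set B. The groups were far apart, and the log2 ratio was 2.44 ± 0.166 (edgeR 2-fold test, adjusted p = 2.45e-06). Scaled by protein length, mean footprint CPM per 1000 residues was 1830.1 for Ttn, 42954 for Myh4, 63298 for Atp2a1 and 147291 for Acta1.

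Other giant proteins mostly lay below the typical gene. Of 33 of 36 listed giant-protein genes measured, Ttn among them, 28 had a negative log2 ratio, with a median of -0.71. Of these 33 genes 6 were low and 2 high, against 11% low and 8.19% high over all coding genes. Together the 33 genes took 29.0% of RNA and 9.25% of footprint counts, but most of this was Ttn. Ttn alone took 24.1% of all RNA counts and 5.91% of all footprint counts. Xirp2, an actin-binding repeat protein of muscle junctions, had a log2 ratio of -2.31 ± 0.148. Neb, which encodes nebulin, the thin-filament ruler, had -0.29 ± 0.132, and its footprint and RNA values overlapped. Hspg2, the basement membrane proteoglycan perlecan, was on the high side at 2.57 ± 0.197.

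In the thin- and thick-filament lists, which share members with the giant proteins, the ratio was above the typical gene more often than below it. Thin-filament and Z-disc genes (34 of 42 measured) held 11 high and 1 low calls, the low one being Xirp2 again, with a median of 0.83, and thick-filament genes (11 of 15) held 1 and 0 with a median of 0.73. The 1 high call among 11 thick-filament genes was near the 8.19% over all coding genes. Cryab, the small heat shock protein that guards desmin and actin, had RNA at 162, 92.9 and 111 CPM in set A and 174 and 135 CPM in set B and footprints at 731, 903 and 679.5 CPM in set A and 882 and 1385 CPM in set B. These groups did not overlap, and the ratio was 6.78-fold above the typical gene (edgeR 2-fold test, adjusted p = 9.82e-06). Acta1 was at 1.08 ± 0.130, past 0 but not past the 2-fold test. Myh4 was at 0.33 ± 0.165 and Mybpc2, a myosin-binding protein of fast fibres, at -0.31 ± 0.155, neither apart from the typical gene. Palld, an actin cross-linker, was among the 12 highest at 3.25 ± 0.208, with 10.8 ± 3.55 CPM in RNA and 102 ± 8.35 in footprints (SD, n = 5).

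Calcium handling was split by gene. Its list (30 of 35 measured) held 6 high and 1 low call, against 8.19% high and 11% low over all coding genes. The median was 0.50, and the list took 4.34% of RNA and 11.7% of footprint counts. Most of that gap came from Atp2a1, at 1.19% of RNA and 6.07% of footprint counts, and Pvalb, at 1.14% and 3.29%. Fkbp1a, the small protein bound to the calcium release channel, was at 2.45 ± 0.114, and Pvalb at 1.64 ± 0.151. Jph1, which anchors the transverse tubule to the sarcoplasmic reticulum, was low at -1.78 ± 0.0925, with RNA between 468.8 and 530.3 CPM and footprints between 129.5 and 164.9 CPM. Ryr1, the release channel itself, was at -0.04 ± 0.253 over all libraries, but its ratio was -0.39 within set A and 0.77 within set B, a difference past the edgeR interaction test of assay and set (adjusted p = 0.014). Ryr1 RNA was at 7139, 6519 and 7285 CPM in set A and 3039 and 2944 CPM in set B, while footprints were at 5947, 4944 and 5162 CPM in set A and 5095 and 5037 CPM in set B. RNA thus differed between the sets and footprints hardly did. In the dystrophin complex and membrane repair list 4 of 23 measured genes were high and Sspn (sarcospan) alone was low, at -1.37 ± 0.0774.

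**Figure D2:**
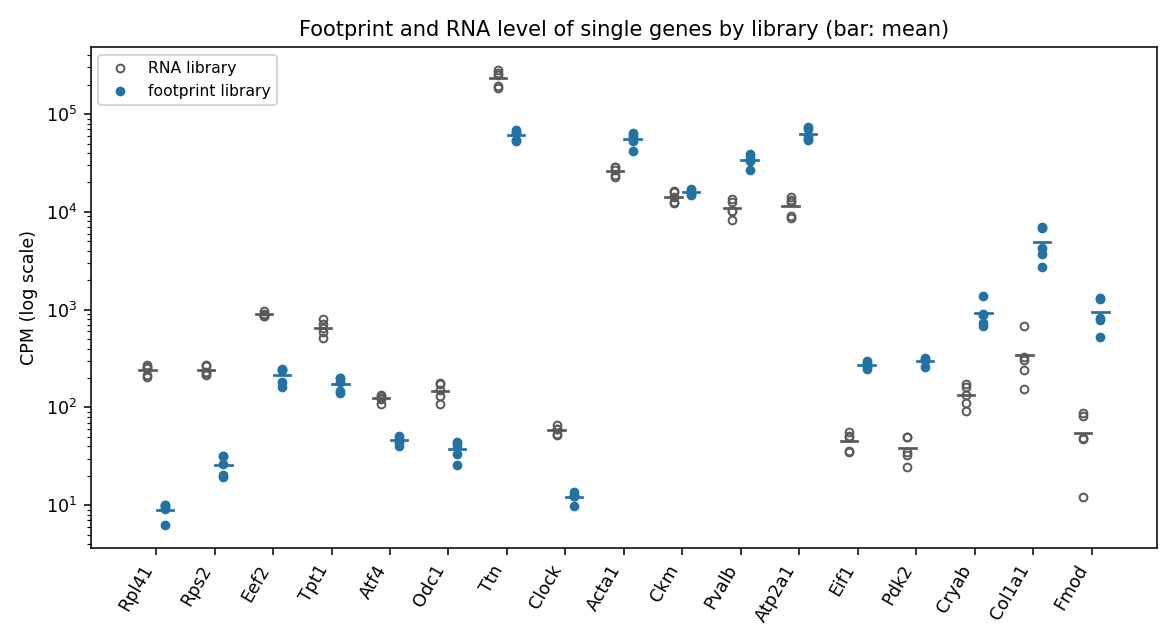
CPM of single genes (log axis) in each of the 5 RNA libraries (open) and 5 footprint libraries (filled), with bars at the means. Footprints sit below RNA from Rpl41 to Clock and above it from Acta1 to Fmod, except for Ckm, whose values overlap.

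Ribosomal protein mRNAs carried few footprints for their RNA. Of the 80 listed genes 73 were measured, 70 had a negative log2 ratio, 43 were low and 0 were high, with a median of -1.29. Small-subunit genes had a median of -1.28 (18 of 31 low) and large-subunit genes -1.40 (25 of 42 low). Summed over members, small-subunit genes made 3534 to 4455 CPM in RNA libraries and 1314 to 1704 CPM in footprint libraries. Near-identical pseudogenes of these genes are common in the genome, and the treatment of ambiguous reads is not given in the sources used here. Values of single members, and the medians and sums taken over them, are therefore uncertain.

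Rpl41, which encodes the smallest protein of the ribosome, had the lowest ratio of all coding genes. Its RNA was at 214, 272 and 207 CPM in set A and 255.4 and 261 CPM in set B, and its footprints at 6.21, 9.16 and 9.56 CPM in set A and 9.99 and 9.98 CPM in set B. The groups were 27.0-fold apart relative to the typical gene, at a log2 ratio of -4.75 ± 0.154 (edgeR 2-fold test, adjusted p = 1.46e-09). Its whole coding region, shown because it has only 25 codons before the stop, is given from the GENCODE M21 transcript (GRCm38, chromosome 10, minus strand) with start and stop codon in capitals.
Rpl41: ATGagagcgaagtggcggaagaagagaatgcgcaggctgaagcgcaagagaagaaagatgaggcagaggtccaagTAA

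Longer ribosomal proteins were low as well. Rps2, a small-subunit core protein, had RNA at 217, 223 and 231 CPM in set A and 267 and 275 CPM in set B and footprints at 19.6, 31.8 and 26.2 CPM in set A and 20.3 and 32.1 CPM in set B, with a log2 ratio of -3.22 ± 0.160. Rplp0, the base of the stalk that recruits elongation factors, was at -3.25 ± 0.145, Rps12 at -3.28 ± 0.188 and Rpsa, a small-subunit protein also known as a laminin-binding protein, at -2.44 ± 0.123. The list also had an upper end. Rpl28 was at 0.44 ± 0.107, Rpl38 at 0.36 ± 0.0928 and Rps16 at -0.02 ± 0.252, and RNA and footprint values overlapped for Rpl28 and Rps16.

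Translation mRNAs of the pyrimidine-tract class outside the ribosome did not all follow. Eef2, the GTPase that drives each step of translocation, had RNA at 906, 869.9 and 888 CPM in set A and 863 and 961 CPM in set B and footprints at 163, 239 and 239 CPM in set A and 180.3 and 246 CPM in set B. Every footprint library lay below every RNA library, at a log2 ratio of -2.07 ± 0.128 (edgeR 2-fold test, adjusted p = 2.52e-06). Tpt1, a small translationally controlled protein, was at -1.91 ± 0.146. Eef1a1, which brings aminoacyl-tRNA to the ribosome, was at -0.06 ± 0.178 and Pabpc1, the poly(A)-binding protein, at 0.62 ± 0.178, and the values of both genes overlapped between assays. Across the 18 measured genes of that list 6 were low and 2 high, against 11% low and 8.19% high over all coding genes.

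Start regions are shown for ribosomal protein genes at both ends of the range, with and without a pyrimidine run, because the pyrimidine tract is the known mark of this class. The windows run from 10 bases before to 20 bases after the RefSeq start (GRCm38.p6), and capitals mark the run of 8 or more C or T that begins with C.
Rpl41 (chr10:128549149-128549178, minus strand): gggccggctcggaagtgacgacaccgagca
Rps12 (chr10:23787190-23787219, minus strand): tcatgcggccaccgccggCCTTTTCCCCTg
Rplp0 (chr5:115559457-115559486, plus strand): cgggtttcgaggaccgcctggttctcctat
Rps2 (chr17:24720053-24720082, plus strand): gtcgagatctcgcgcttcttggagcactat
Rpl35 (chr2:39005112-39005141, minus strand): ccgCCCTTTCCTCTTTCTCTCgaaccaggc
Rpl14 (chr9:120571507-120571536, plus strand): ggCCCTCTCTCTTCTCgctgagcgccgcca
Rps18 (chr17:33955646-33955675, minus strand): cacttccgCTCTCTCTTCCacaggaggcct
Rps16 (chr7:28350679-28350708, plus strand): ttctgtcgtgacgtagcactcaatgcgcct
Rpl38 (chr11:114668570-114668599, plus strand): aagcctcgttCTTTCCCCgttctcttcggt
Rpl28 (chr7:4792955-4792984, plus strand): tctcgtgtCTCTCTTTCCgtctccggccgc
Rpl35, Rpl14 and Rps18 had log2 ratios of -1.86, -1.71 and -1.43, against 0.36 for Rpl38 and 0.44 for Rpl28, so such a run stood at the start of genes with low and with middling ratios. Of the 4 lowest genes shown, Rps12 alone held such a run in this window, and the windows of Rpl41, Rplp0 and Rps2 held none, nor did that of Rps16 at the upper end. That says only that these letters are not in these windows. Of all 4804 coding genes with an entry, 9.20% held such a run on the coding strand in this window. Only 54 of the 73 ribosomal protein genes, or 74.0%, had an entry, under the 80% set for such a check, so no share is given for them. Rpl35, Rpl14 and Rps18 were chosen for display after their values were seen.

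Most other parts of the translation apparatus lay above the typical gene. Initiation factors (35 of 38 measured) had a median of 0.51 with 6 high and 0 low, aminoacyl-tRNA synthetases (22 of 23) 0.59 with 2 and 0, and ribosome biogenesis genes (22 of 29) 0.34 with 2 and 0. Over all coding genes 8.19% were high and 11% low, so the high calls of the last 2 lists were near the general share. Eif1, the factor that guards start codon choice, had RNA at 49.5, 50.9 and 55.9 CPM in set A and 35.1 and 36.2 CPM in set B and footprints at 248, 262 and 266 CPM in set A and 299 and 281 CPM in set B. The groups did not overlap, at a log2 ratio of 2.58 ± 0.139, and the ratio was larger in set B (3.04) than in set A (2.31; edgeR interaction, adjusted p = 0.032). Eif4a2, an RNA helicase of initiation, was at the other end at -1.14 ± 0.0975. Iars, the isoleucyl-tRNA synthetase, was at 1.70 ± 0.0993 and Ncl, the nucleolar protein nucleolin, at 1.62 ± 0.125.

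Genes known for upstream reading frames were mostly below the typical gene. Of 13 measured genes 3 were low and 0 high, against 11% low and 8.19% high over all coding genes. The median was -0.54, and 11 had a negative ratio. Atf4, the transcription factor of the integrated stress response, had RNA at 122, 108 and 124 CPM in set A and 132 and 134 CPM in set B and footprints at 51.3, 48.0 and 44.4 CPM in set A and 45.7 and 40.3 CPM in set B. Footprints were below RNA in every library, at a log2 ratio of -1.43 ± 0.0886 (edgeR 2-fold test, adjusted p = 2.65e-04). Ibtk, an inhibitor of Bruton's tyrosine kinase, was at -1.98 ± 0.0777, while Klhl28 was at 0.61 ± 0.110.

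The GENCODE M21 transcript of Atf4 (GRCm38, chromosome 15, plus strand) has 3 ATGs before the main start. Each is shown with 9 bases on each side and the ATG in capitals, because Atf4 is a textbook case of upstream control. Which of the 3 frames act in this muscle was not tested. From the start of the transcript they lie at bases 120, 399 and 498, and the main start at base 595.
Upstream ATG at base 120, frame of 111 bases: ttttctctcATGgggccttta
Upstream ATG at base 399, frame of 12 bases: gcggccaccATGgcgtattag
Upstream ATG at base 498, frame of 180 bases that runs past the main start: gcctaagccATGgcgctcttc
Main start at base 595: ccccacaacATGaccgagatg
Polyamine genes, whose translation is known to respond to polyamine supply, were also below the typical gene. Odc1, the rate-limiting enzyme ornithine decarboxylase, was the 1 low gene of 6 measured, at -1.99 ± 0.175, with 148 ± 29.7 CPM in RNA and 37.2 ± 7.67 CPM in footprints (SD, n = 5). Its matched transcript has 2 upstream ATGs. The share of low genes over all coding genes was 11%. Iron-responsive and selenoprotein genes had medians close to 0, at 0.07 and 0.03; Epas1, a hypoxia factor with an iron-responsive element, was at 2.11 ± 0.263 and Gpx3, the secreted glutathione peroxidase, at 1.51 ± 0.180.

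Enzymes of energy supply had ratios modestly above the typical gene. Medians were 0.69 for glycolysis and glycogen (4 high of 28), 0.78 for pyruvate dehydrogenase and the TCA cycle (4 high, 1 low of 26) and 0.57 for fatty acid oxidation (3 high of 27). Respiratory complexes I, II with III, IV and V had medians of 0.57, 0.57, 0.60 and 0.47, with 4, 0, 0 and 2 high calls. The share of high genes over all coding genes was 8.19%. Mitochondrial ribosomal proteins, at a median of 0.22 over 71 genes with 2 high and 1 low, did not share the low values of the cytosolic ones.

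Kinases of the same enzyme lay at opposite ends. Pdk2, which shuts down pyruvate dehydrogenase, had RNA at 49.3, 32.6 and 50.1 CPM in set A and 35.3 and 24.5 CPM in set B and footprints at 318, 305 and 302 CPM in set A and 258 and 306 CPM in set B. Its groups did not overlap and its log2 ratio was 2.96 ± 0.185 (edgeR 2-fold test, adjusted p = 5.76e-07). Pdk1 was low, at -1.53 ± 0.116, with RNA between 65.6 and 99.50 CPM and footprints between 25.5 and 32.7 CPM. Pdk4, the isoform that fasting is known to induce, was at 0.94 ± 0.219, and its values overlapped between assays. The 3 genes for the same subunit c of the ATP synthase also spread, with Atp5g1 at -0.30 ± 0.203, Atp5g2 at -0.90 ± 0.185 and Atp5g3 at 1.10 ± 0.164. Etfa, the electron carrier of fatty acid oxidation, was at 2.05 ± 0.124, Ndufab1, the mitochondrial acyl carrier protein, at 1.78 ± 0.109, and Cox7c, a small subunit of complex IV, at -1.33 ± 0.153. Gapdh was at -0.28 ± 0.203 and is uncertain, since it too has many near-identical pseudogenes. The low call of Cox7c was lost without RNA library A1 (-1.31), without RNA B1 (-1.22) and without footprint libraries A3, B1 or B2 (-1.26, -1.25 and -1.32).

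Protein quality control genes had few low calls. The core proteasome (14 of 14 measured) had 3 high and 0 low with a median of 0.77, and the regulatory particle 6 and 0 with 0.73. Cytosolic chaperones held 10 high of 27, chaperones of the endoplasmic reticulum 7 of 30, and lysosome genes 9 of 32, each with 0 low. The shares over all coding genes were 8.19% high and 11% low. Hspb6, a small heat shock protein of muscle, was at 3.17 ± 0.277, Pdia3, a disulfide isomerase, at 2.34 ± 0.143, Psmd11, a regulatory-particle subunit, at 2.05 ± 0.0900, and Cd63, a lysosomal membrane protein, at 2.44 ± 0.131. Erp29, an endoplasmic reticulum protein, was at -0.99 ± 0.120 and Atp6v1g1, a proton pump subunit, at -0.997 ± 0.0996, neither past the 2-fold test.

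Regulators stood on both sides of the typical gene. Insulin signalling genes had a median of -0.51 with 6 low and 1 high of 25, mTOR and amino acid sensing genes 0.03 with 5 and 2 of 28, and clock genes 0.12 with 4 and 1 of 15. Over all coding genes 11% were low and 8.19% high, so the high calls of these lists were near or below the general share. Lamtor1, which anchors the Ragulator complex to the lysosome, was at -2.24 ± 0.140, and Rraga, the Rag GTPase that Ragulator holds there, at 2.09 ± 0.127. Mtor itself was at -0.03 ± 0.112. Clock, the positive arm of the circadian oscillator, was at -2.27 ± 0.103 and Per1, one of its targets, at 1.65 ± 0.218.

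Single transcription and splicing factors lay far from the typical gene in both directions. Mef2c, a muscle differentiation factor, had RNA between 513.4 and 695.2 CPM and footprints between 109.2 and 148.4 CPM, at -2.27 ± 0.116, while Nfic, a nuclear factor I protein, was at 2.90 ± 0.149. Of muscle transcription factors 5 were high and 3 low of 25, and of splicing factors 5 and 4 of 52, the latter close to the shares over all coding genes (8.19% high and 11% low). Mbnl1, the splicing regulator sequestered in myotonic dystrophy, was at -1.90 ± 0.108, and Ptbp1, a repressor of exon inclusion, at 1.68 ± 0.0994. Genes with a Zfp symbol, a group chosen after the values were seen, had a median of -0.77 over 62 genes with 15 low and 0 high, and Zfp106, an RNA-binding zinc finger protein, was the lowest at -3.65 ± 0.219. Fasting-linked genes had a median of 0.31. The atrophy ubiquitin ligases Fbxo32 at 0.42 ± 0.368 and Trim63 at 0.66 ± 0.223 had overlapping values between assays, and Foxo4, a FoxO factor, was low at -2.09 ± 0.0905.

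**Figure D3:**
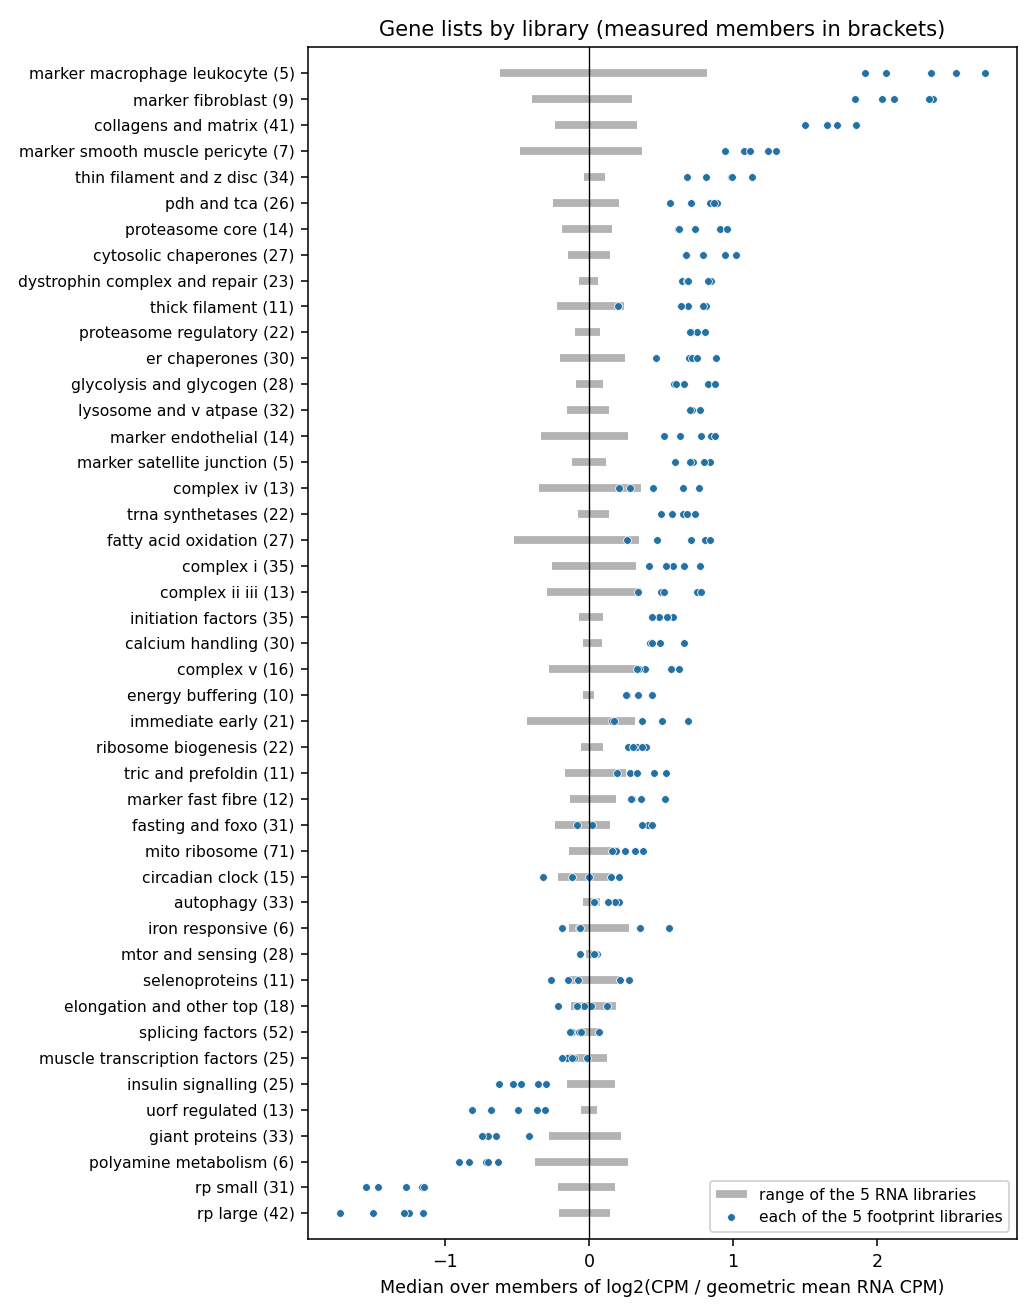
Median over the measured members of each list (number in brackets) of log2 CPM relative to the gene's mean RNA level. Points are the 5 footprint libraries and grey bars the range of the 5 RNA libraries; ribosomal protein lists sit lowest, and leukocyte, fibroblast and matrix lists highest.

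Extracellular matrix genes had high ratios as a group. All 41 measured genes of the collagen and matrix list had a positive ratio, 29 were high and 0 low, and the median was 1.65, or 3.13-fold above the typical gene. They took 0.780% of RNA and 2.86% of footprint counts. Col1a1, the main chain of type I collagen, had RNA at 302, 679 and 327 CPM in set A and 239.6 and 153 CPM in set B and footprints at 2739, 7018 and 4247 CPM in set A and 3734 and 6792 CPM in set B. Libraries differed several-fold within each assay and still did not overlap between assays, at a log2 ratio of 3.85 ± 0.429 (edgeR 2-fold test, adjusted p = 7.21e-05). Fmod, a collagen-binding proteoglycan abundant in tendon, was at 4.10 ± 0.509, with RNA between 12.1 and 87.0 CPM and footprints between 520.1 and 1323 CPM. Thbs4, a matrix protein of tendon and muscle attachment, was at 3.38 ± 0.466, and Bgn, the proteoglycan biglycan, at 3.31 ± 0.20. Col3a1, the chain of type III collagen from the same cell type, was only at 0.81 ± 0.246, and its values overlapped.

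Markers of non-muscle cells also lay mostly above the typical gene. The fibroblast list is itself largely made of matrix genes, among them Col1a1 and Col3a1, so it is not a separate result. Fibroblast markers (9 of 10 measured) had a median of 2.10 with 5 high, and their sum ran from 3150.3 to 5453 CPM in RNA and from 12919.5 to 21681 CPM in footprints. Macrophage and leukocyte markers (5 of 13) were all high, with sums of 103 to 309 and 711 to 1321 CPM, and Cd74, the invariant chain of antigen presentation, was at 3.11 ± 0.429. Smooth muscle and pericyte markers had a median of 1.10 (2 high of 7) and endothelial markers 0.67 (2 of 14), against 8.19% high over all coding genes. The endothelial median was near that of glycolysis and glycogen genes, at 0.69. High ratios were not particular to non-muscle markers. The 2 measured slow-fibre or cardiac markers, Actc1 at 2.32 and Tpm3 at 2.59, were both high. Within these lists single genes differed: the fibroblast receptor Pdgfra was at 0.57 ± 0.122 and the endothelial phosphatase Ptprb at -0.78 ± 0.159, against 2.48 ± 0.198 for the endothelial cadherin Cdh5. In whole tissue fewer cells of a type and less RNA per cell cannot be told apart, and whether the pieces used for the 2 assays held like shares of these cells was not tested.

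The genes with the highest and lowest ratios of all completed the range. Naca, one of the 2 high genes of the pyrimidine-tract list, had the highest ratio, at 4.54 ± 0.103, with RNA at 36.7, 39.5 and 40.01 CPM in set A and 33.9 and 33.3 CPM in set B and footprints at 898, 778 and 911 CPM in set A and 842 and 835 CPM in set B. The assays were 23.3-fold apart relative to the typical gene with little spread within either. Its matched transcript encodes the 2187-residue muscle form of the nascent polypeptide-associated complex subunit, and reads of the long and the short form cannot be told apart in these counts. Pcbp1 and Pcbp2, related poly(C)-binding proteins that act in mRNA stability and translation, were at 4.13 ± 0.138 and 3.37 ± 0.100. Ly6e, a small membrane-anchored protein, was at 3.58 ± 0.155, Clec3b, the secreted protein tetranectin, at 3.56 ± 0.229, Mapre3, a microtubule end-binding protein, at 3.52 ± 0.171, and Serping1, the secreted inhibitor of complement C1, at 3.21 ± 0.199. At the low end, after Rpl41, stood Dnajc27 at -3.80 ± 0.133, the DNA- and RNA-binding protein Purb at -3.75 ± 0.131, Cdv3 at -3.66 ± 0.0900 and the centromere protein Cenpb at -3.55 ± 0.100. Ybx1, the mRNA-packaging Y-box protein, was at -3.40 ± 0.128, Rnf11, a small ubiquitin ligase, at -3.28 ± 0.130, and Coa5, a complex IV assembly factor, at -3.25 ± 0.117.

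Transcript features divided these ends. Of the 12 lowest named genes 8 have a matched 3' UTR over 2000 bases, against 0 of the 12 highest and 29.0% of the 5930 coding genes with a GENCODE transcript. Cenpb and Rnf11 are among these 8, but their matched transcripts, of 4886 and 4061 bases, exceed the authors' gene lengths of 2724 and 2132. Their 3' UTR lengths are therefore uncertain. Among the 12 highest, the matched transcript of Palld has 0 bases of 3' UTR, so its length is uncertain as well. Across all of these genes the median log2 ratio was 0.32 for 3' UTRs of up to 200 bases, 0.37 for those up to 500, 0.19 up to 1000, -0.07 up to 2000, -0.26 up to 4000 and -0.68 beyond that. The share of low genes was 5.93% in the class up to 500 bases and 28.1% over 4000. Spearman's rho of the ratio with 3' UTR length was -0.28 across genes, which share their libraries.

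Upstream ATGs went the same way. Genes with 0, 1, 2, 3 to 4 and over 4 ATGs before the start codon had medians of 0.16, -0.07, -0.14, -0.26 and -0.36. The order held among transcripts with 5' UTRs of over 200 and up to 400 bases, at 0.23 for 543 genes without and -0.16 for 1209 genes with an upstream ATG, and among 3' UTRs over 2000 bases, at -0.20 and -0.53. Genes with G at the fourth coding base but no purine at position -3 of the start codon had a median of -0.23 (349 genes), and those with both had 0.04 (2753 genes). Protein length showed little trend, with medians between -0.17 and 0.05 over 6 classes of protein length. With RNA level taken from set A and the ratio from set B, the median fell over 10 classes of RNA level from 0.22 in the lowest to -0.18 in the ninth, and was -0.01 in the highest. The 25th percentile was -0.20 in the lowest class and -1.08 in the ninth. The deposited table held no count under 129, so genes with little RNA and few footprints can be missing from the lowest classes. How far this cut shapes the fall was not tested.

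Which part of each transcript the authors counted is not given in the sources used here, and it bears on these trends. If RNA had been counted over whole transcripts and footprints lay in coding regions alone, the log2 ratio would shift by the log2 coding share of the transcript. The observed slope of the ratio on that share was 0.309 across genes, and subtracting the full share widened the standard deviation over genes from 0.993 to 1.10. With it subtracted, the 3' UTR trend turned round, from -0.36 at up to 200 bases to 0.36 over 4000, and protein length gained one, from 0.78 under 100 residues to -0.88 over 1600. The upstream-ATG order stayed, from 0.13 with none to -0.28 with over 4. So did the low medians of small- and large-subunit ribosomal proteins, at -1.70 and -1.63, the giant proteins, at -1.58, and the high median of matrix genes, at 1.19, while Coa5 came to -0.17 and Sspn turned to 0.37. Other lists did not keep their place: aminoacyl-tRNA synthetases came to -0.00, ribosome biogenesis genes to 0.00 and thick-filament genes to -0.04, each from above the typical gene. The pyrimidine-tract list went from -0.05 to -0.78, and muscle transcription factors from -0.17 to 0.67.

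**Figure D4:**
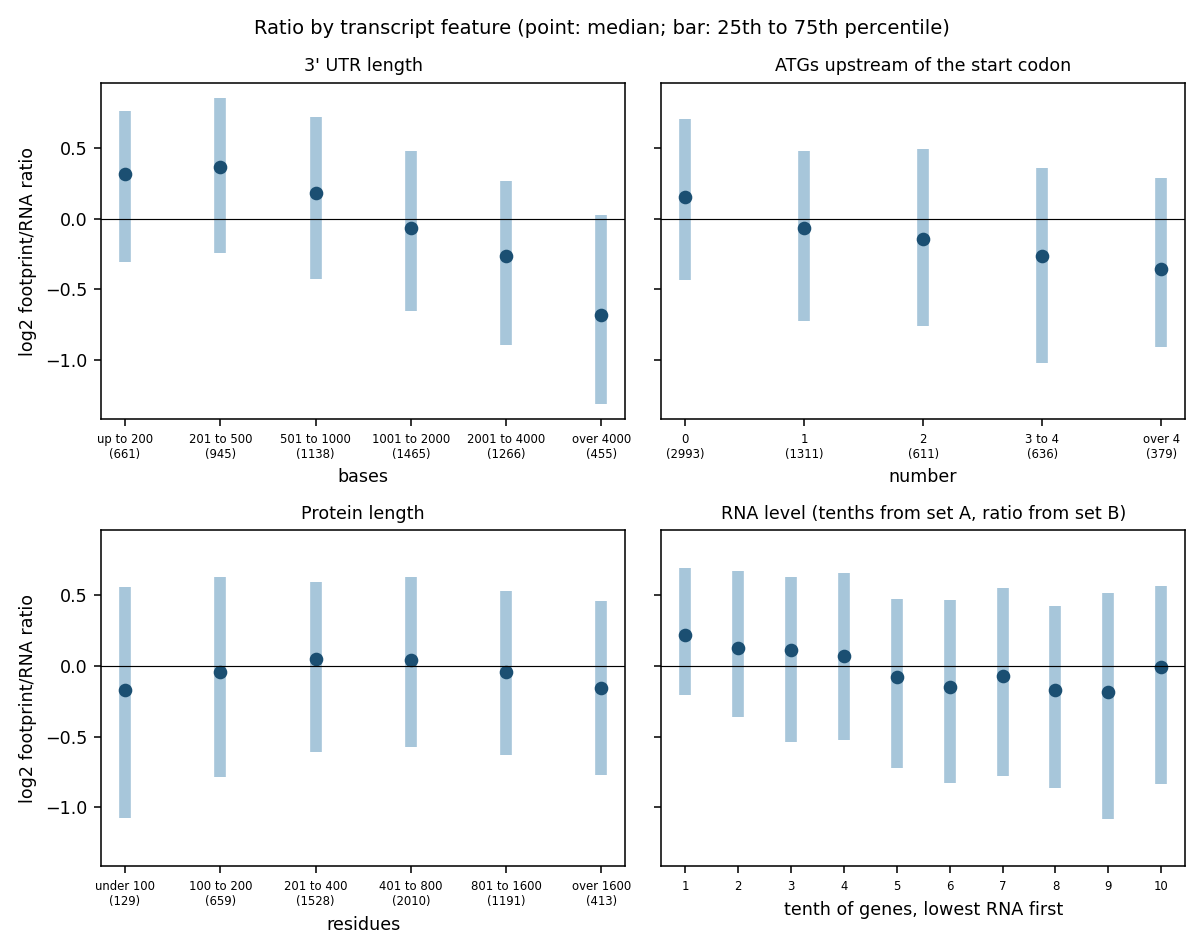
Log2 footprint-to-RNA ratio of coding genes by 3' UTR length, upstream ATGs, protein length and RNA level in 10 classes (points are medians, bars run from the 25th to the 75th percentile, numbers of genes in brackets). The median falls from 0.32 to -0.68 with 3' UTR length and from 0.16 to -0.36 with upstream ATGs, and stays between -0.17 and 0.05 over protein length.

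Subunits of a complex are needed in fixed proportion, so their footprint levels per residue can be set beside each other. For the 7 listed core subunits of complex I, the standard deviation over subunits of log2 CPM per 1000 residues was set side by side. It lay between 0.630 and 0.680 in the RNA libraries and between 0.333 and 0.452 in the footprint libraries, with no overlap. Ndufs8, the subunit with the lowest RNA level per length, had a ratio of 1.24 ± 0.150, and without it the medians were 0.371 in RNA and 0.272 in footprints. For the 9 listed nuclear-encoded subunits of complex IV the order was the reverse, 0.587 to 0.634 in RNA and 0.994 to 1.11 in footprints. There the footprint level per 1000 residues ran from 647 for Cox7c to 7998 for Cox6c, a 12.4-fold span against 4.02-fold in RNA. Core proteasome subunits (0.557 in RNA and 0.556 in footprints at the median library), the chaperonin TRiC (0.335 and 0.361) and eIF3 (0.595 and 0.625) were spread alike in both assays. For TRiC 7 of 8 listed subunits were measured. Among these, the footprint level per length differed by 2.04-fold between the lowest, Cct2, and the highest, Cct8.

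**Figure D5:**
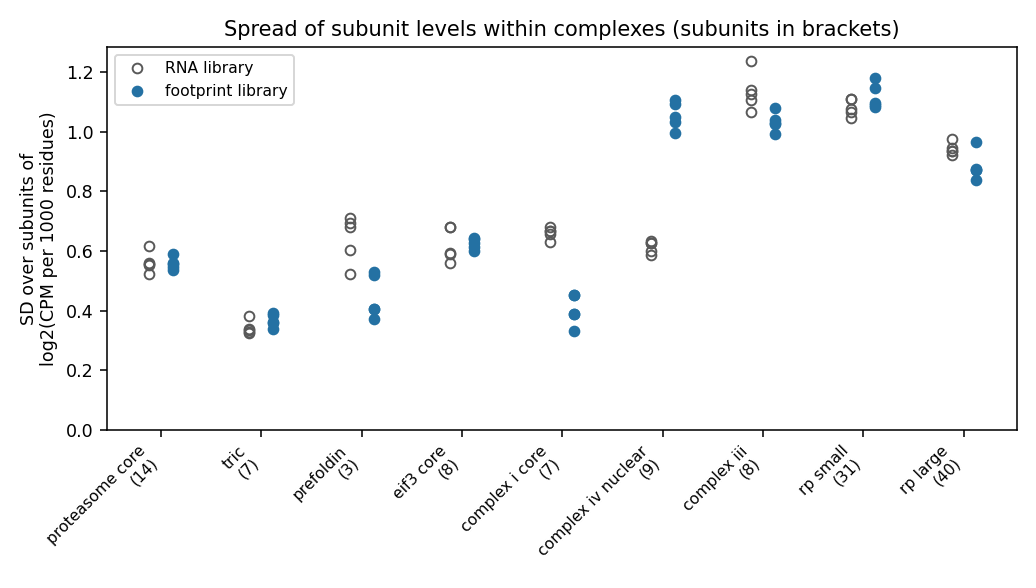
Standard deviation over subunits of log2 CPM per 1000 residues in each RNA (open) and footprint (filled) library, for 9 complexes or groups. Footprint libraries sit below RNA libraries for complex I and above them for complex IV, and the values lie close together for the core proteasome, TRiC and eIF3.

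The 2 sets of libraries gave different ratios for some genes. The edgeR interaction of assay and set called 85 coding genes with a higher ratio in set B and 16 with a lower one, with 1088 genes of the whole table at an unadjusted p under 0.05. Long proteins leaned 1 way: the median difference, set B minus set A, was -0.20 for proteins under 100 residues, -0.02 for the class of over 400 to 800 and 0.29 for over 1600. Palld (2.90 in set A and 3.89 in set B, adjusted p = 0.0491) was among those called by edgeR. Ribosomal protein and matrix medians kept their side in both sets, at -1.25 and -1.41 for the small subunit, -1.29 and -1.51 for the large subunit and 1.61 and 1.85 for matrix genes in sets A and B. What the sets stand for was not given, so a difference in mice, preparation or sequencing cannot be told apart.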

How the data were processed

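A gene-level matrix of raw counts was deposited by the authors, with symbols and transcript identifiers. Per the submitters' processing notes Bowtie, edgeR and mouse build mm9 were used; the sources used here do not give versions, the counted region, strand or the treatment of ambiguous reads, so overlapping and antisense genes and near-identical copies are uncertain. The 5 vehicle footprint and 5 vehicle RNA columns entered 1 edgeR model (version 4.0.16, R 4.3.3; TMM, filterByExpr, robust quasi-likelihood), with Benjamini-Hochberg adjustment over all 6054 genes at 0.05; the filter removed 0 genes. The 2-fold call is glmTreat at a log2 ratio of 1. The method was tested on simulated data. Depth makes counting error small beside the spread between libraries: the lowest count was 129, and the biological coefficient of variation was 18.0% in RNA and 15.2% in footprints. Within an assay, Pearson's r of log2 CPM between libraries was 0.950 or more, and no pair agreed within counting noise, so each counts as 1 sample. Columns carry no replicate number, so libraries were not paired.

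Lengths and upstream ATGs come from GENCODE M21 transcripts (GRCm38) matched by RefSeq identifier for 5930 of 5959 coding genes, and start windows from RefSeq promoters (GRCm38.p6); no coordinate from mm9 is used. The deposited tables of edgeR results per assay were not used beyond their gene lengths (whole numbers per gene in the authors' tables), which were within 200 bases of the matched transcript for 4338 of 5919 genes. The members and lists were chosen with earlier results of these data known. Named genes are the 12 highest and 12 lowest ratios past the 2-fold call (predicted or clone symbols left out), the highest and lowest member of each list with 5 or more measured genes, a list of 47 well-known genes of muscle and translation where measured, and the highest and lowest subunit of each complex. Some genes that this rule names are not reported here. Lists carry no test. Alternatives were other scalings, DESeq2 1.42.0, limma-voom (limma 3.58.1), filters, the set as a covariate or alone, each library left out, and, added after seeing the data, transcript features and the coding-share adjustment.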

Additional observations from a re-analysis of the deposited data

Results flagged for a closer look

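In each assay's 5 libraries, Dixon's test asked whether the highest or lowest value of each named gene stood apart from the others. It was passed in 8 of 310 tests (155 genes in 2 assays), where chance passes about 1 in 20. In footprints, library A1 was lowest for Rpl41 (6.21 CPM, next 9.16) and for Pfdn5, a prefoldin subunit (23.6 CPM, next 31.7), and highest for Psmd11 (173.2 CPM, next 150.1) and Ryr1 (5947 CPM, next 5162). Footprint library B1 was lowest for Pdk2 (257.7 CPM, next 302.2), and footprint library B2 highest for Eif3l, an eIF3 subunit (67.9 CPM, next 61.0). In RNA, library A2 was highest for Rpl28 (44.9 CPM, next 36.9) and library B2 for the selenoprotein gene Sepw1 (177.8 CPM, next 155.1). Without footprint library A1, Sepw1 passed the 2-fold test, at a log2 ratio of 1.33 against 1.24 with it.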

How the results depend on the processing

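The 2-fold calls (488 high, 653 low) ranged over 395 to 518 high and 557 to 723 low under other scalings, DESeq2, limma-voom, coding genes alone, set as a covariate and each set alone; plain CPM, which shifts the coding median by -0.10, gave 395 and 723. Calls against the typical gene (2227 and 2257) ranged from 1901 to 2354 and from 2037 to 2433. Leaving out each library gave 466 to 507 and 607 to 658 2-fold calls, and 2167 to 2252 and 2154 to 2219 against the typical gene. With a mean count of at least 1000 required in both assays, fewer genes were tested, and 142 and 196 passed the 2-fold test and 733 and 725 the other. With the coding-share adjustment Sspn, alone among named genes with a 2-fold call, reversed, from -1.37 to 0.37. Other named genes shifted as well. Erp29 went from -0.99 to 0.71, Myh4 from 0.33 to -0.65 and Fbxo32 from 0.42 to 2.10, while Rpl41 stayed low at -3.29 and Col1a1 high at 3.27. The matched transcript of Erp29, of 5204 bases, exceeds the authors' gene length of 1243, so its adjusted value is uncertain. With it, 988 genes had a log2 ratio above 1 and 970 below -1, against 748 and 932 without it. This adjustment was chosen after seeing the data. Single 2-fold calls of named genes were lost in 5 cases with DESeq2, 4 with limma-voom, 4 within set A and 10 within set B, each with its direction kept. Mt1 lost its call without RNA A1, B1 or B2 (2.23, 2.18 and 2.25), Mrpl30 without RNA B1 or footprint A1 or A3 (-1.24, -1.22 and -1.26), and Igfbp5 without RNA A1 or B1 or footprint B1 or B2 (1.39, 1.39, 1.33 and 1.38). No paired analysis was possible because the columns carry no replicate number. Counting error is no limit here; genes outside the deposited table were not analysed here.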

Other observations

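The 95 genes of the table with a noncoding identifier had a median log2 ratio of -0.18, with 6 high and 19 low. Among coding genes 8.19% were high and 11% low. Adipocyte markers (3 of 10 measured) varied widely between libraries, with sums of 137 to 2601 CPM in RNA and 948 to 3257 CPM in footprints. Myh1, the heavy chain of intermediate fast fibres, had RNA at 6493, 569 and 3652 CPM in set A and 5556 and 1148 CPM in set B and footprints at 1733, 4935 and 1279.8 CPM in set A and 3974 and 8747 CPM in set B, so its level differed more between libraries of an assay than between assays, at a log2 ratio of 0.25 ± 0.707. Mt1, which encodes the metal-binding protein metallothionein, had 36.7 ± 18.8 CPM in RNA and 186 ± 125 CPM in footprints (SD, n = 5), at 2.35 ± 0.503.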
